A study of Mus musculus with 4 samples.

Results

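The nuclear factor I family was taken as its 4 genes, Nfia, Nfib, Nfic and Nfix, of 21883 protein-coding genes, and was followed through single-nucleus chromatin accessibility of mouse mammary epithelium. It was chosen by name after the scores of its DNA motif had been seen to differ between fetal and adult nuclei of these same libraries, so the motif differences are given as a description with no test. Cells were sorted as EpCAM+ and Lin- (carrying an epithelial surface protein and lacking the surface proteins of other lineages) from wild-type CD1 mice, an outbred strain, either as fetuses at embryonic day 18 or as adults 8 weeks old, with 2 libraries per stage labelled as biological replicates. No genotype, transgene or treatment separated the groups, and how many animals each library held was not stated. In this assay the Tn5 transposase inserts sequencing adapters into open DNA, so the number of reads over a stretch of genome measures how accessible it is, not how much RNA or protein is made there.

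Nuclear factor I proteins bind DNA as dimers at a palindrome made of TTGGC, any 5 bases and GCCAA, and can also bind a single arm of it, TTGGC. The 4 proteins share nearly the same DNA-binding domain, so a motif in open chromatin does not say which of them is bound. The family is known for roles in the development of glia, lung, muscle and blood stem cells, and in the mammary gland for binding at milk protein genes. Because the motif cannot separate the members, the question put to the data was which member's own locus was open in the nuclei where the motif was most accessible.

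The libraries held 882 and 1695 fetal nuclei and 2465 and 2804 adult nuclei, with medians of 4420 to 7488 reads per nucleus and 6028168 to 19304830 reads per library, and no nucleus barcode was shared between libraries. The authors' deposited table placed the 7846 nuclei in 14 numbered classes. By markers, adult classes 1 and 8 were basal-like (9 of 9 basal markers raised in each), adult 3 and 7 luminal progenitor-like (6 of 7 each) and adult 2 and 11 mature luminal-like (6 and 5 of 7). None of the mature luminal markers was among the 10 leading genes of class 2 or class 11. Fetal class 4 was basal-like (6 of 9, although none of the basal markers was among its 10 leading genes), and fetal classes 5 and 9 were luminal progenitor-like (5 and 6 of 7). Class 5 raised 2 of 4 luminal markers and also the basal marker Krt14. Class 9 raised 3 of 4 luminal markers and also the basal markers Krt14 and Krt17. Class 6 went against the epithelial sort: it raised 8 of 8 stromal markers, and its 4 luminal markers summed to 53.2 CPM (counts scaled to a total of 1e+06) against 137 to 598 in the other 13 classes. It drew 56 of its 213 nuclei from fetal libraries. Class 10 (adult) raised luminal markers of both kinds, and classes 12 and 13 (fetal) and 14 (adult) were left unnamed. Class 12 raised 3 of 9 basal markers (Krt14, Acta2 and Trp63), 2 of 7 luminal progenitor markers (Lcn2 and Csn3) and 0 of 4 luminal markers. Its basal markers summed to 716 CPM, against 760 in class 4. Stromal markers were also raised in part elsewhere, 4 of 8 each in class 8 (Col1a2, Col3a1, Dcn and Vim) and class 12 (Col1a1, Pdgfra, Lum and Vim) and 3 of 8 in class 4, with summed levels of 296, 326 and 298 CPM against 860.2 in class 6 and 136 to 281 in the other 10 classes. Endothelial markers summed to 89.9 to 152 CPM, and 2 of 4 (Cdh5 and Tie1) were raised in classes 12 and 13. Immune markers summed to 97.6 CPM in class 8, where 2 of 5 (Ptprc and Adgre1) were raised, and to 21.3 to 57.2 CPM in the other classes.

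The promoter sequences are shown because in them the family's own motif could be looked for beside its genes. A promoter window is the 250 bases before and 50 bases after an annotated start, from RefSeq (build GRCm38.p6, which has the coordinates of mm10). Of 6 windows for the family, 1 belonged to Nfia, 1 to Nfic and 4 to Nfix. The arm TTGGC, searched on both strands, was found in 3 windows, all of Nfix, against 46.7% of the 32851 windows of all genes. The full palindrome was in none of the 6 (0.0365% of all windows), nor was its core, the palindrome without the outermost base of each arm (0.807%), which is contained in it. The 3 Nfix windows and the Nfic window follow, 5′ to 3′ on the strand of the gene (minus), with the arms in capitals, TTGGC or, for an arm on the opposite strand, GCCAA.
Nfix chr8:84775779-84776078: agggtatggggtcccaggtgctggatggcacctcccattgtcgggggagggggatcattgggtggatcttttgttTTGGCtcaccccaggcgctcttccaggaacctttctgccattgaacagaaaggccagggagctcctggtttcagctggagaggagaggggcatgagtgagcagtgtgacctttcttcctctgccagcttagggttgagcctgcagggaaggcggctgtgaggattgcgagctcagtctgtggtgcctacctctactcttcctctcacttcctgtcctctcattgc
Nfix chr8:84773361-84773660: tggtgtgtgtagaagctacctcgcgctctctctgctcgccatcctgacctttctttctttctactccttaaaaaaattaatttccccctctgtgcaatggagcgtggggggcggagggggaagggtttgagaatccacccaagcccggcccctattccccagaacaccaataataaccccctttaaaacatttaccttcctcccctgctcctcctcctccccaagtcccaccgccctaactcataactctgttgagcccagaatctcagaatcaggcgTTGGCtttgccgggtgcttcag
Nfix chr8:84772826-84773125: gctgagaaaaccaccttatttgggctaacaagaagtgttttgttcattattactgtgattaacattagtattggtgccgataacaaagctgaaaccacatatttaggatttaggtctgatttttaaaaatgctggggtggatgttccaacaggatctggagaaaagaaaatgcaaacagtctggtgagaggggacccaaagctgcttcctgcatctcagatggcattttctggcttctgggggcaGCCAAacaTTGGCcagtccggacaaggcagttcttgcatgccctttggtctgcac
Nfic chr10:81427124-81427423: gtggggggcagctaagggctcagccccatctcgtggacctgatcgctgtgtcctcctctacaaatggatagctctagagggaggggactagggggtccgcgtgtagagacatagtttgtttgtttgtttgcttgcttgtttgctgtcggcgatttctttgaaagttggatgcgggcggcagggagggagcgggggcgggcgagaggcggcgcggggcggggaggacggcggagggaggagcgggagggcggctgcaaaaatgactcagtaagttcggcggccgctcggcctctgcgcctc
The last of the Nfix windows held an arm on each strand, 3 bases apart, in the order GCCAA then TTGGC, which is not the order of the palindrome. The first of them was read more often in fetal nuclei, with 2.49 and 2.47 RPM (reads scaled to 1e+06 reads of listed nuclei) against 1.40 and 1.40 in adult nuclei, from 15, 39, 19 and 27 reads, and this difference was not tested. By class it was nevertheless highest in the adult basal-like class 1 (4.85 RPM), followed by fetal class 5 (3.32). The mature luminal-like classes 2 and 11 had 0.637 and 0.219 RPM. Between the stages the last window went the other way, with 0.332 and 0.570 RPM in fetal against 0.589 and 0.622 in adult nuclei, from 2, 9, 8 and 12 reads, also untested. The second overlapped a deposited distal region whose reads are given with the other Nfix regions, although its arm lay outside that region. The Nfic window had a GC content of 63% and gave 3.48 and 2.78 RPM in fetal against 4.19 and 4.30 in adult nuclei. The Nfia window, chr4:97581693-97581992, held 1, 4, 0 and 1 reads, few at any stage. None of the 6 windows overlapped a deposited promoter region. Those in the Nfia span lay elsewhere and were read more. At chr4:97771692-97772691 there were 118 and 288 fetal and 243 and 396 adult reads, and at chr4:97777155-97778154 79 and 273 against 262 and 426.

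The motif was measured through the authors' deposited deviation scores, which say how far the reads over all regions holding a motif lie above or below matched background regions in a nucleus. Every member had a column, but the Nfia and Nfib columns were identical in all 7846 nuclei, so the 4 names stood for 3 distinct measurements. In the Nfix column the fetal library means were 1.26 and 1.75 and the adult means -0.816 and -0.954. That difference of 2.39 (fetal 1.51 ± 0.351, adult -0.885 ± 0.0974, SD, n = 2 each) ranked 1 among 427 columns. In the Nfic column the means were 0.700 and 1.09 against -0.501 and -0.453, a difference of 1.37 that ranked 4. In the shared Nfia and Nfib column they were 0.546 and 0.847 against -0.373 and -0.348, a difference of 1.06. Both fetal libraries thus lay above both adult libraries in every column of the family, as they did in 41.9% of all 427 columns, whose median absolute difference was 0.256. These differences mix the stage with the make-up of the libraries: when each class was given equal weight they were 0.693 (Nfia and Nfib), 0.963 (Nfic) and 2.00 (Nfix), and among nuclei at or above the median depth 1.33, 1.75 and 2.87.

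By class, all 3 measurements were highest in the luminal progenitor-like fetal class 5, with means of 1.34 (Nfia and Nfib), 1.67 (Nfic) and 2.67 (Nfix), and the fetal classes 12 and 9 came next. They were lowest in the mature luminal-like class 2, at -1.34, -1.84 and -1.49. The columns differed in sign in 5 classes, and parted most in adult basal-like nuclei. There the shared Nfia and Nfib column was above 0 in classes 1 and 8 (0.402 and 0.477), as was the Nfic column (0.747 and 0.798), while the Nfix column was below 0 in both (-0.976 and -0.888). In the luminal progenitor-like classes 3 and 7 the gap was smaller, with 0.460 and 0.429 (Nfia and Nfib) and 0.593 and 0.474 (Nfic) against -0.178 and -0.122 (Nfix). In the fetal class 13 the signs were the other way round, with -0.194 and -0.177 against 0.698 for Nfix. The basal-like difference held in each adult library separately: over classes 1 and 8 together the Nfix score was -0.942 and -0.963, and the Nfic score 0.768 and 0.775. Over the 14 class means the Nfia and Nfib column followed the Nfic column (r = 0.992) more closely than the Nfix column (r = 0.793), and over single nuclei these values were 0.769 and 0.540.

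**Figure D1:**
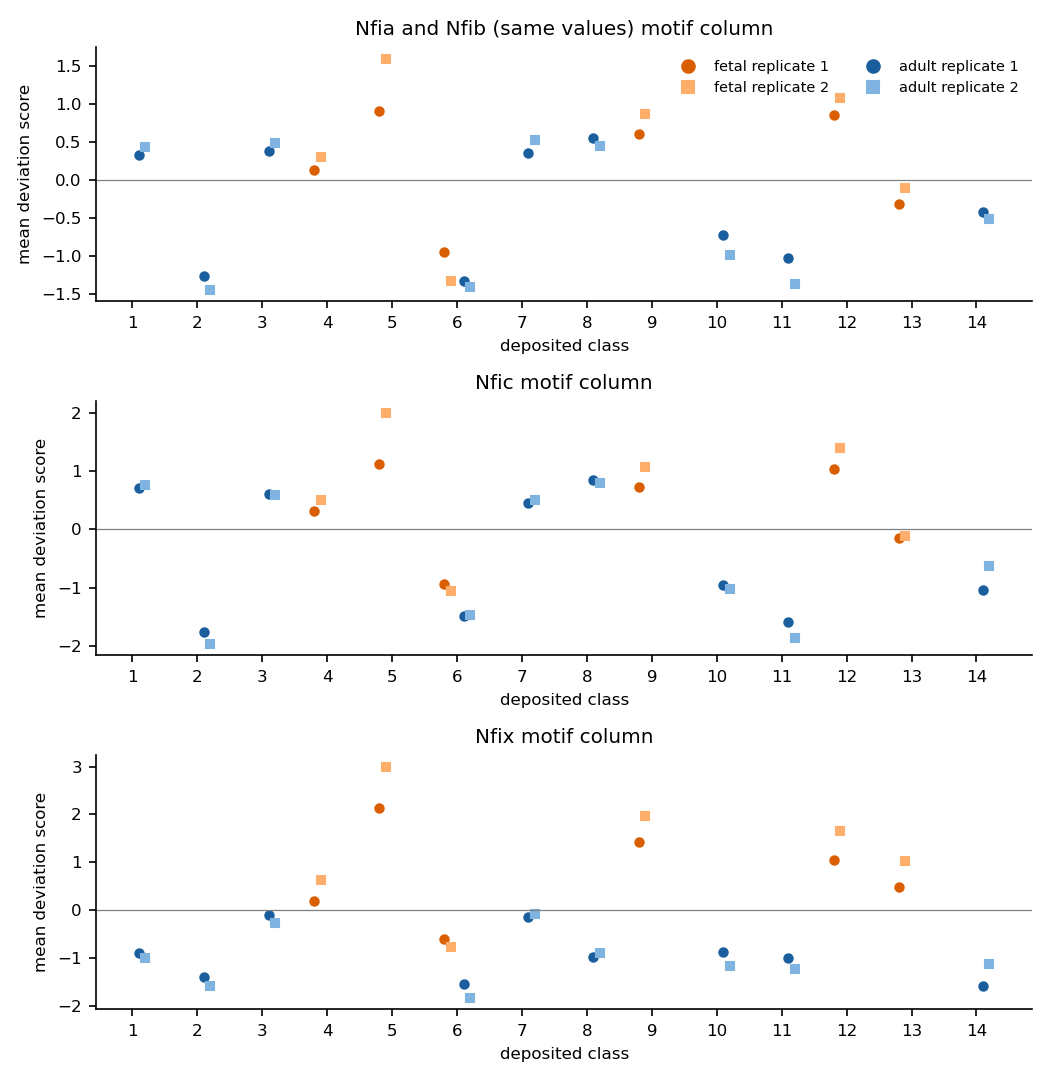
Mean motif deviation score (vertical axis, no unit) in each deposited class (horizontal axis) for the 3 distinct motif columns, 1 point per library with at least 20 nuclei of the class. Fetal classes 5, 9 and 12 are high in all 3 panels, and adult basal-like classes 1 and 8 lie above 0 in the Nfic panel and near -1 in the Nfix panel.

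The members' own loci were measured as reads over the gene plus 2 kb on each side, given as CPM of the reads over all gene spans. The genes lie at chr4:97578066-98118876 (Nfia), chr4:82290173-82506751 (Nfib), chr10:81396191-81431919 (Nfic) and chr8:84704712-84801238 (Nfix), in RefSeq GRCm38.p6. Scaled to length, the most densely read locus was that of Nfic, at 4.44 CPM per kb in fetal and 4.91 in adult libraries, and the least was that of Nfia, at 0.945 and 0.919. The span of Nfic shares 2889 bases with that of its neighbour Smim24, and the span of Nfix shares 4005 bases with that of Lyl1, and reads there cannot be told apart.

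Nfib was the only member whose locus passed the test between stages, and it was more open in fetal nuclei. Its levels were 595 and 671 CPM in the fetal libraries and 378 and 404 CPM in the adult ones, so the groups did not overlap. The difference was 0.70 on the log2 scale (SE 0.087), a fold of 1.62, with an edgeR adjusted p of 0.000135. The other 3 loci did not pass the test. Nfia had 490.3 and 539.6 CPM in fetal and 466 and 536 CPM in adult libraries, which overlapped (log2 difference 0.04, SE 0.091, edgeR adjusted p = 0.795). Nfic had 180.3 and 173 against 203 and 187 CPM (log2 -0.15, SE 0.10, edgeR adjusted p = 0.340). Nfix had 371 and 363 against 343 and 344 CPM (log2 0.09, SE 0.085, edgeR adjusted p = 0.473), so the member with the largest motif difference had almost the same locus level at both stages. Over all 18804 genes tested, 22.2% were called, 11.3% as higher in fetal nuclei, and in 61% the stages did not overlap, as was the case for Nfib, Nfic and Nfix (31.4% with fetal above adult, as in Nfib and Nfix, and 29.6% with fetal below, as in Nfic). A sum over a library cannot separate a change in the mix of classes from a change within a class, and the libraries held different classes, so the class levels are given below.

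**Figure D2:**
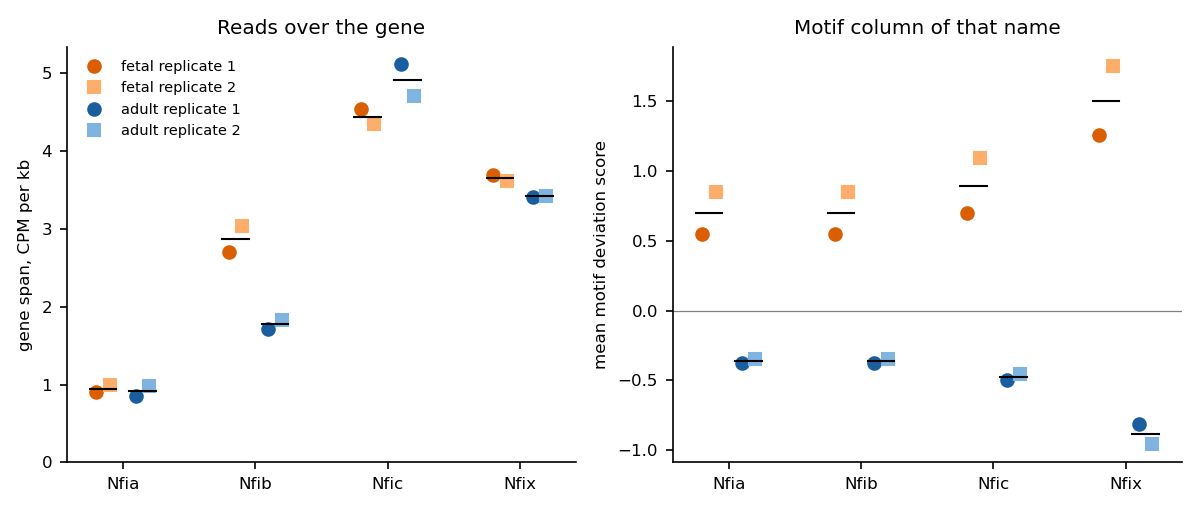
Reads over each gene span in CPM per kb of span (left) and mean motif deviation score (right) for the 4 members, 1 point per library, with black bars at the mean of the 2 libraries of a stage. Nfib is the member whose fetal levels, 2.70 and 3.04 CPM per kb, stand well above its adult levels of 1.71 and 1.83, while all motif columns are higher in fetal libraries.

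Across the 14 classes, the Nfib locus was most open in the fetal classes 12 (785 CPM, 95% Poisson interval 748 to 824), 5 (734 CPM) and 9 (634 CPM). Its lowest levels were in the stromal-like class 6 (283 CPM, 253 to 316) and the mature luminal-like class 2 (312 CPM), so the highest class was 2.77-fold above the lowest. Adult basal-like and luminal progenitor-like classes lay between, from 439 CPM in class 7 to 503 CPM in class 1. Of the other fetal classes, class 4 had 596 CPM, and class 13 had 445 CPM, within that adult range. Most neighbours in this order did not differ beyond their spread: in 1 of 13 neighbouring pairs, class 7 over class 11, were both the counting intervals and the library values apart. Class 12, the highest, raised 3 of 9 basal and 0 of 4 luminal markers. It is also one of the classes with stromal and endothelial markers raised in part, and the part of any of these in its Nfib level was not tested. These intervals cover counting error only, and reads of one nucleus are not independent.

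Nfix had the widest range of the family, 4.80-fold. It was highest in the adult basal-like classes 1 (674 CPM, 641 to 709) and 8 (558 CPM), followed by the luminal progenitor-like classes 3 (497 CPM) and 7 (463 CPM). It was lowest in the mature luminal-like classes 2 (140.4 CPM, 132 to 149) and 11 (154 CPM). Here 3 of 13 neighbouring pairs were apart by both measures, class 1 over 8, 8 over 3 and 14 over 11. Within the adult libraries, luminal progenitor-like nuclei had 476 and 475 CPM against 154 and 137 CPM in mature luminal-like nuclei, log2 differences of 1.62 and 1.78. A difference of at least 0.5 in that direction in both libraries was found for 8.39% of 12330 genes with at least 1000 reads. Basal-like nuclei had 662 and 605 CPM, which was 0.47 and 0.35 above the luminal progenitor-like nuclei on the log2 scale, under the 0.5 that 8.8% of genes reached in both libraries.

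Nfia and Nfic varied in other ways, with folds of highest over lowest class of 1.88 and 2.39. Scaled to all reads of a class the fold of Nfic was 2.79, against 2.68 for Nfib, so the order of these members depends on the scaling. The Nfia locus was most open in the stromal-like class 6 (782 CPM, 731 to 835), where it reached 606 and 941 CPM in the fetal and 659 and 823 CPM in the adult libraries, and it ran from 416 to 598 CPM in the other 13 classes. None of its 13 neighbouring pairs was apart by both measures. The Nfic locus was highest in class 7 (242 CPM) and lowest in the basal-like class 8 (101 CPM). Its level moved with the share of a class's reads that fell in promoter regions (r = 0.699 over 14 classes, rho = 0.473), which ran from 17.8% in class 8 to 27.1% in class 7. For Nfib the same r was -0.0693. The part of that share in the Nfic levels was not tested.

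**Figure D3:**
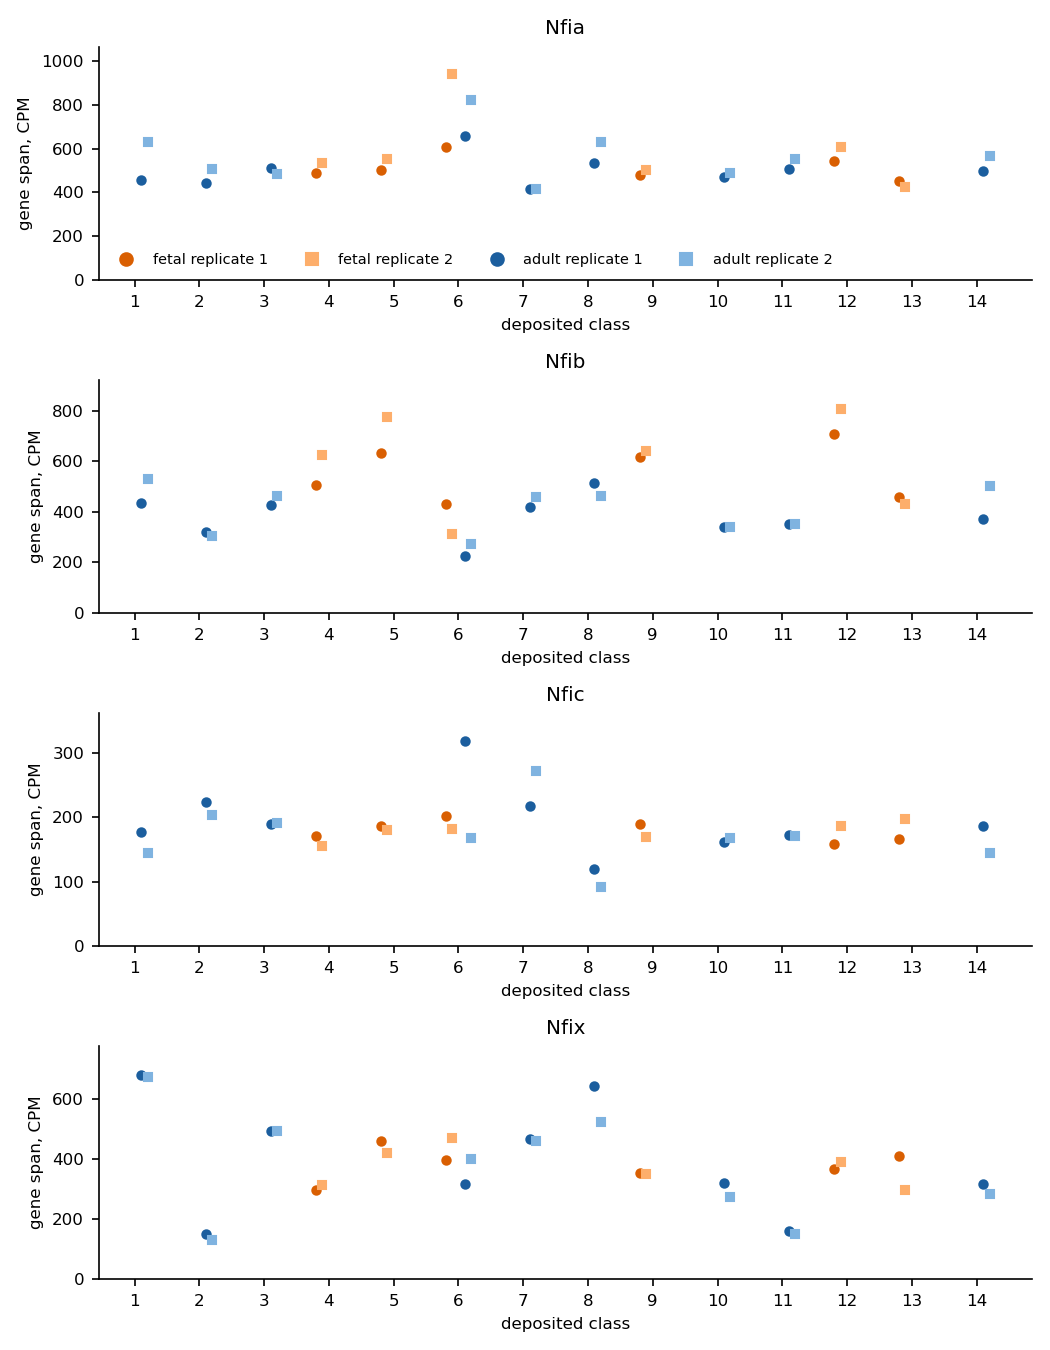
Reads over the gene span in CPM (vertical axes, starting at 0) in each deposited class (horizontal axis) for the 4 members, 1 point per library with at least 20 nuclei of the class. Nfib is high in fetal classes 5, 9 and 12, Nfix is high in adult classes 1 and 8 and low in 2 and 11, and Nfia is highest in class 6 in each library, although its lowest point there, 606 CPM, lies below points of other libraries in classes 1 and 8.

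Set against the motif over all 14 classes, Nfib was the member whose locus followed each of the columns most closely. Over the 14 classes, log2(CPM + 2) of Nfib and the mean of its own motif column correlated at r = 0.913 (rho = 0.859), and 0.170% of 12330 genes had an r at least as high, while 10.6% had an r of at least 0.5. Among the 6 classes with at least 50 fetal nuclei r was 0.970, and 0.592% of genes were at least as high (31.1% at 0.5 or more). Among the 9 classes with at least 50 adult nuclei it was 0.877, and 1.01% of genes were at least as high (13.3% at 0.5 or more). Over all 14 classes Nfib also followed the Nfic column (r = 0.889) and the Nfix column (r = 0.846). In the adult classes these values were 0.828 and 0.627, and there the Nfix locus was closer to the Nfic column than Nfib was. All these values are descriptions over classes that share libraries and depth, and they were made from the nuclei that defined the classes.

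The Nfix locus did not track the column of its own name, with r = 0.260 over the 14 classes, a value that 30.2% of genes reached, but it did track the other columns. With the Nfia and Nfib column r was 0.680, and with the Nfic column 0.748. In the adult classes alone these were 0.840 and 0.902 (1.73% and 0.665% of genes at least as high), against 0.504 with the Nfix column. In the 6 fetal classes they were -0.0919, -0.0386 and 0.0182. The Nfia locus was not alike to its column, at r = -0.124, and 0.272 when class 6 was left out, a choice made after its levels were seen. The Nfic locus gave r = -0.246 with its own column, and 0.276 when its promoter regions stood in for the gene span.

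**Figure D4:**
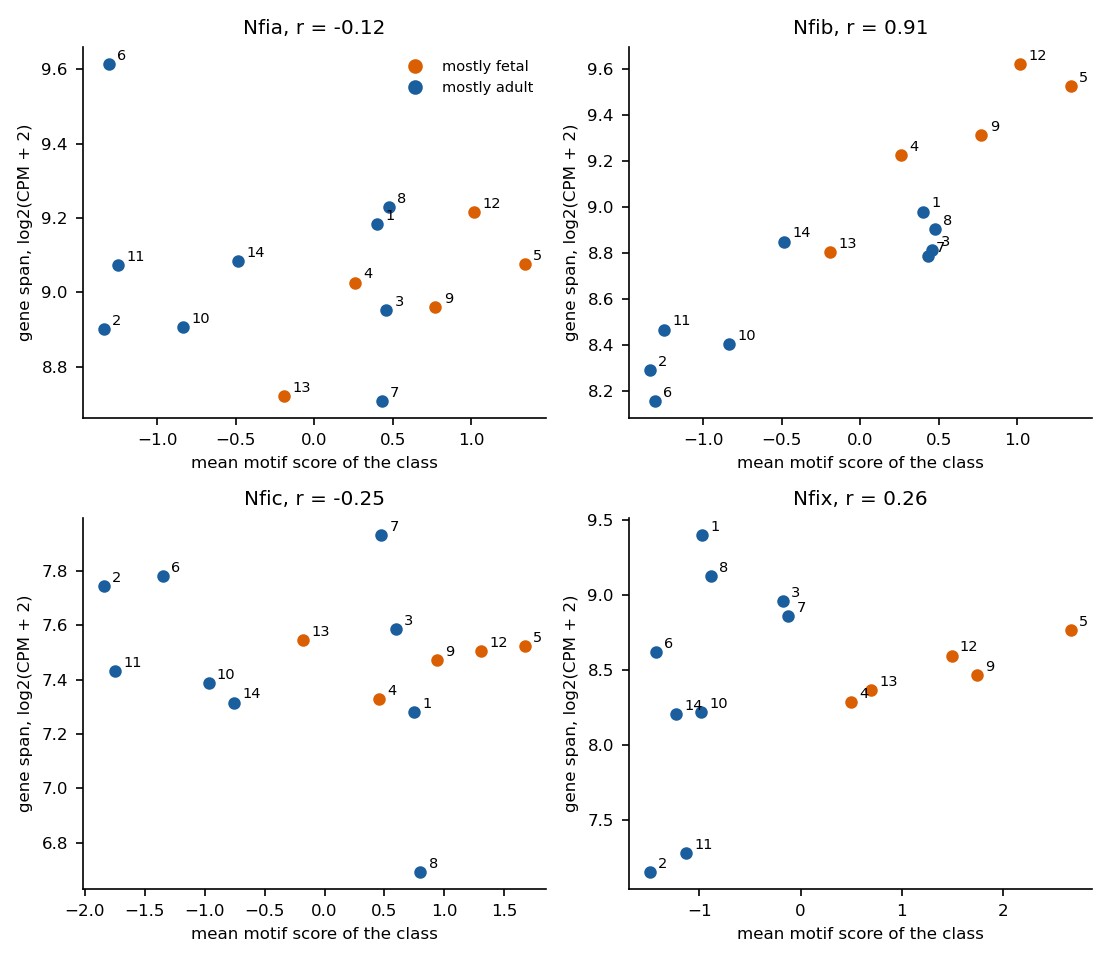
Gene span level, log2(CPM + 2), on the vertical axis against the mean score of the motif column of the same name on the horizontal axis, 1 numbered point per class, orange where most nuclei were fetal. The Nfib points rise together (r = 0.913), whereas in the Nfix panel adult classes 1 and 8 have the highest locus levels with motif scores near -1.

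The members were also compared in pairs of classes of like kind at the 2 stages. In luminal progenitor-like nuclei, the Nfib locus had 615 and 642 CPM in fetal class 9 and 423 and 462 CPM in adult classes 3 and 7, a log2 difference of 0.51, and the Nfia and Nfib score was 0.609 and 0.877 against 0.365 and 0.517. The Nfix locus went the other way, with 355 and 349.8 CPM in fetal against 476 and 475 CPM in adult nuclei, while the Nfix score was 1.43 and 1.97 in fetal against -0.138 and -0.162 in adult nuclei. Nfia lay on the side of Nfib, with 479.8 and 504 CPM in fetal against 447 and 448 CPM in adult nuclei, and Nfic on the side of Nfix, with 189.9 and 169 against 208 and 234 CPM. Fetal above adult without overlap was found for 28.1% of genes in this pairing, and fetal below adult for 30.5%. In class 5, the other luminal progenitor-like fetal class, the Nfib locus had 634 and 776 CPM. The Nfix locus had 461 and 421 CPM there, nearer the adult levels than in class 9. In basal-like nuclei, the Nfix locus had 297 and 314 CPM in fetal class 4 and 662 and 605 CPM in adult classes 1 and 8, a log2 difference of -1.05. There the Nfib locus had 505 and 626 against 470.2 and 501 CPM, a gap smaller than the spread between the fetal libraries, and the Nfia and Nfib score was lower in fetal nuclei (0.137 and 0.306 against 0.419 and 0.444). Nfic was higher in fetal nuclei here (170.3 and 155 against 151 and 120.5 CPM), and Nfia overlapped (488 and 534 against 491 and 631 CPM). The percentages for this pairing were 24.6% and 25.6%. Between basal-like and luminal progenitor-like nuclei (classes 1 and 8 against 3 and 7 in adult, 4 against 9 in fetal libraries), the Nfib and Nfix loci differed in opposite directions at the stages in every library, as did 11.2% of the 12330 gene spans. The Nfic motif column did so too, as did 10.3% of the 427 columns. Class 12, unnamed but with 3 of 9 basal markers raised, lay above class 9 in these 3 measures in both fetal libraries. These contrasts carry no test, since class membership was set on the same reads.

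Distal regions, the authors' 1000-base stretches listed apart from their promoter regions, show where in each locus the reads lay. They are not free of annotated gene starts. The Nfic window and the second Nfix window shown above each overlapped 1 distal region and no deposited promoter region. Of 122865 distal regions tested over the genome with edgeR, 35.3% were called, 16.6% higher and 18.8% lower in fetal nuclei. Nfib held 71 such regions in its span, of which 65 passed the filter of 10 reads per library on average. Of these, 22 rose in fetal nuclei (33.8%) and 1 fell, and the median log2 difference was 1.08, against -0.01 over all distal regions. With regions within 100 kb of the gene added, 29 of 94 rose and 5 fell. With no filter the median over all 71 was 1.06, and 60 of 71 lay above 0. The number that rose was 10 of 53 tested without fetal replicate 2 (18.9%, against 11.8% of all distal regions at that setting), 12 of 68 without adult replicate 1 (17.6% against 11.1%) and 8 of 65 in DESeq2 (12.3% against 8.83%). With a mean of at least 50 reads fewer regions were tested, and 7 of 14 rose, against 25.2% of all. In Nfia, 17 of 62 tested regions rose (27.4%) and 12 fell (19.4%, close to the 18.8% of all distal regions). Those that rose were 11 of 63 without fetal replicate 2, 9 of 64 without adult replicate 1, 11 of 62 in DESeq2 and, with a mean of at least 50 reads, 5 of 17. Those that fell were 3 of 62 in DESeq2 (4.84%, against 11.4% of all distal regions) and 2 of the 17 (11.8% against 28.3%). Fewer also fell without fetal replicate 2 and without either adult replicate. The shares that rose, 17.7% in DESeq2 and 29.4% of the 17, were above the 8.83% and 25.2% of all. In Nfix 7 of 33 rose and 3 fell, and in Nfic 2 of 12 fell. Whether a region lies in an exon or an intron was not analysed here.

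**Figure D5:**
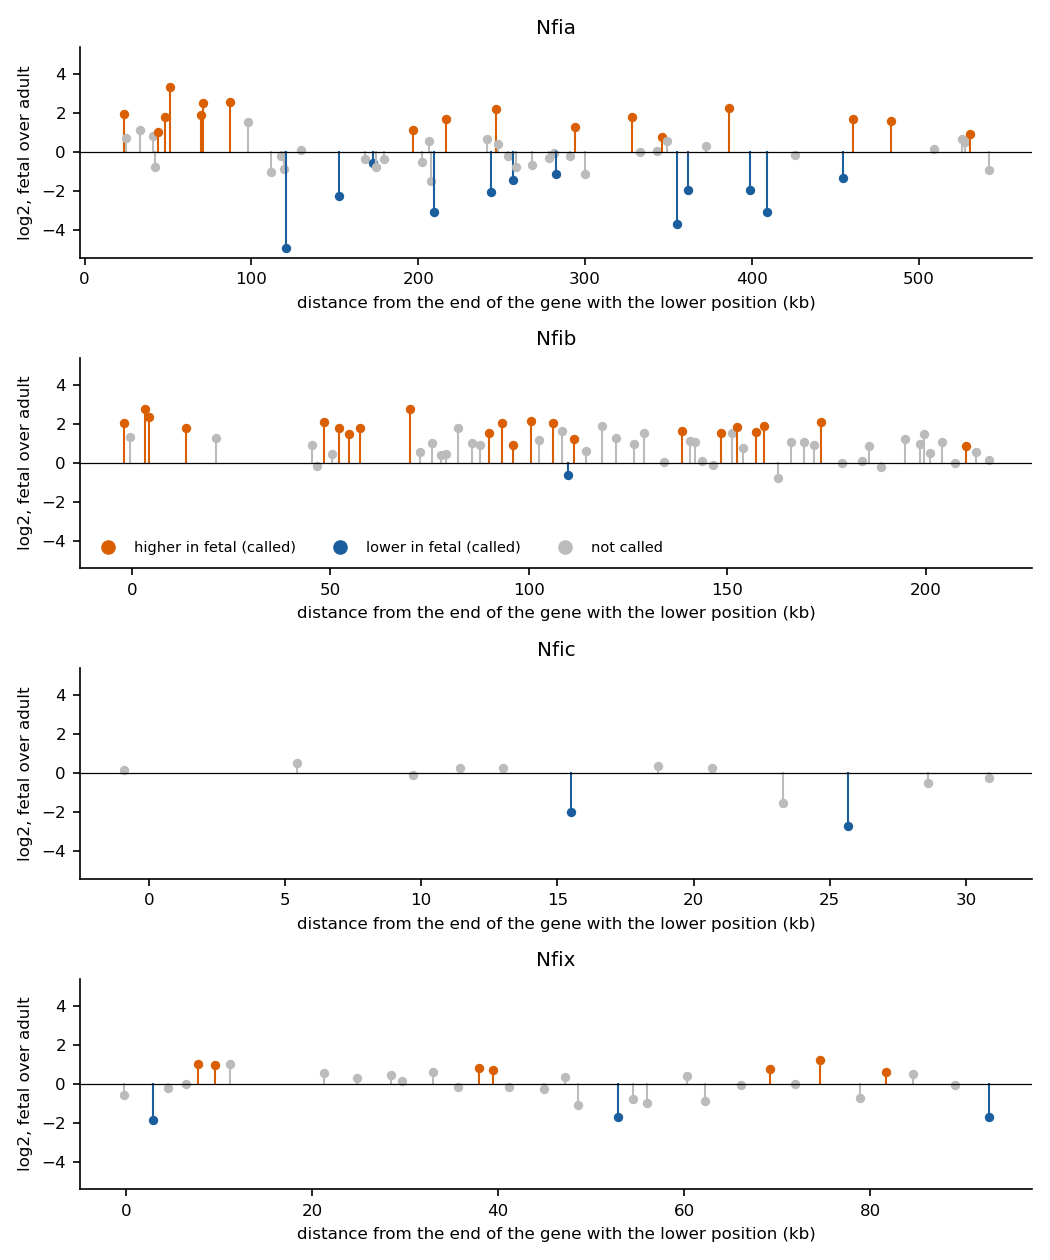
Log2 difference, fetal over adult (vertical axes), of each tested distal region in the span of a member against its distance in kb from the end of the gene with the lower position (horizontal axes). Orange and blue mark regions called higher and lower in fetal nuclei: Nfib has 22 orange and 1 blue point spread along the gene, and Nfia has 17 and 12.

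Among the Nfib regions picked by the naming rule, chr4:82382954-82383953 had 126 and 321 reads in the fetal and 57 and 113 reads in the adult libraries. Its log2 difference was 2.05 (SE 0.23, edgeR adjusted p = 6.27e-09). By class it was highest in the fetal classes 5 (79.8 CPM of reads over distal regions), 9 (54.2) and 12 (50.2), and it had no read in class 6, which allows up to 6.20. The regions chr4:82338212-82339211 and chr4:82463280-82464279 rose by 2.12 and 2.08 on the log2 scale (SE 0.31 and 0.36) and were likewise highest in fetal class 12, at 30.5, and in classes 13 and 12, at 27.0 and 26.0. The region that fell, chr4:82399649-82400648 (97 and 253 against 388 and 430 reads, log2 -0.62, SE 0.20, edgeR adjusted p = 0.0113), was no longer called without fetal replicate 2 or without adult replicate 1. The region with the most reads, chr4:82505579-82506578 beside the upper end of the gene, did not pass the test (235 and 574 against 484 and 654 reads, log2 0.15, edgeR adjusted p = 0.519). The most read region of the locus was thus not among those that rose. Whether the start of Nfib lies at that end was not analysed here.

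Across classes, 6 of the 14 Nfib regions with at least 200 reads had r of at least 0.5 with its motif column, and 12 of 26 when regions within 100 kb were added, while 24.3% of all distal regions did. For Nfia this was 4 of 17, for Nfic 1 of 7 (24.2% of all) and for Nfix 2 of 15 (18.3% of all).

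In Nfix, the region chr8:84712016-84713015, 7.80 kb inside the lower end of the gene, rose in fetal nuclei (96 and 264 against 100 and 173 reads, log2 1.03, SE 0.22, edgeR adjusted p = 0.000355). Its class profile resembled that of the whole locus in the mature luminal-like classes, where it was all but closed: it had 0.986 CPM in class 2 and none in class 11 (up to 1.66), against 78.8 in class 12 and 75.3 in class 1. The regions chr8:84713762-84714761 and chr8:84742198-84743197 rose by 0.95 and 0.79 (SE 0.36 and 0.26), and the latter was highest in the stromal-like class 6, at 88.8. The region chr8:84707173-84708172 fell (16 and 53 against 148 and 226 reads, log2 -1.83, SE 0.29, edgeR adjusted p = 3.07e-06) and was highest in the adult luminal progenitor-like classes 7 and 3, at 51.9 and 45.4. The span as a whole had nearly the same level in the libraries of both stages. Between classes of like kind it was lower in fetal nuclei. The log2 difference was -0.43 for class 9 against 3 and 7 and -1.05 for class 4 against 1 and 8. The part of these regions and of the mix of classes in the library level was not tested. The region over the second Nfix window, chr8:84773430-84774429, which the naming rule did not pick, had 74 and 223 against 109 and 155 reads (log2 0.76, SE 0.23, edgeR adjusted p = 0.00857). The number of Nfix regions that rose was 6 or 7 in 8 of 13 alternatives. It was lower without fetal replicate 1 and without either adult replicate. In DESeq2 1 of 33 rose (3.03%, against 8.83% of all distal regions) and 1 fell (3.03% against 11.4%). The balance of 7 and 3 turned without adult replicate 1 and with no filter on low counts. With no filter 2 rose (6.06%, against 12.9% of all distal regions) and 7 fell (21.2% against 19.3%). Over the genome more regions fell than rose at that setting, but also at the main one (16.6% rose and 18.8% fell). With no filter Nfib had 20 that rose and 1 that fell, Nfia 15 and 15, and Nfic 0 and 3. The cause of the turn in Nfix was not tested. The number of Nfix regions that fell was 5 with all barcodes (15.2%, against 19.4% of all distal regions) and was lower without adult replicate 2. It was 1 of the 15 tested with a mean of at least 50 reads (6.67% against 28.3%).

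In Nfic, chr10:81411182-81412181 fell in fetal nuclei, with 26 and 44 against 177 and 266 reads (log2 -1.97, SE 0.28, edgeR adjusted p = 5.72e-07). It was highest in class 7 (56.9) and class 6 (51.7), and lowest in the fetal classes 4 and 12 (2.36 and 4.48). The most read Nfic region, chr10:81424307-81425306, did not pass the test (100 and 167 against 259 and 364 reads, log2 -0.49, SE 0.22, edgeR adjusted p = 0.0735). In Nfia, chr4:97600978-97601977 rose (24 and 126 against 22 and 32 reads, log2 1.96, SE 0.38, edgeR adjusted p = 8.12e-05). It was most open in the stromal-like class 6, at 70.2, against 0 to 20.6 in the other classes, and the part of class 6 in its stage difference was not tested. The regions chr4:97621349-97622348 and chr4:97774637-97775636 rose by 1.02 and 1.13 (SE 0.26 and 0.30). The most read Nfia region, chr4:97750626-97751625, fell by 0.53 and chr4:97860253-97861252 fell by 1.11 on the log2 scale (SE 0.20 and 0.36, edgeR adjusted p = 0.0354 and 0.0148). Nfia thus held regions that rose and regions that fell under a total that did not pass the test. Single regions ran from -4.93 to 3.37. The share that fell, 19.4%, was close to the 18.8% of all distal regions, and in DESeq2 it was below that of all.

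Deposited promoter regions lay in the spans of Nfia (2), Nfic (3) and Nfix (3), and 1 of these 8 was called, where 21.5% of 18570 promoter regions were (3992, against 2514 without fetal replicate 2), so the count sets the family apart in neither direction. That one, chr8:84801519-84802518 at the upper end of Nfix, had 4 and 21 reads in fetal and 54 and 48 reads in adult libraries (log2 -1.52, SE 0.48, edgeR adjusted p = 0.0156), and it is the least read of the 8. The Nfia promoter regions had log2 differences of -0.04 and -0.40 and those of Nfic 0.10 to 0.35, with edgeR adjusted p values of 0.0713 to 0.886. The other 2 of Nfix had -0.08 and, at chr8:84722691-84723690, 0.64 (SE 0.29, edgeR adjusted p = 0.115). That last region had 31 and 109 against 48 and 84 reads, levels that did not overlap and lay in the direction opposite to the one called.

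The authors' deposited co-accessibility scores, made over all nuclei pooled, are named as made with Cicero, which gives each pair of nearby regions a regularised correlation of their accessibility over groups of similar nuclei, with a penalty that grows with distance. At a score of at least 0.25, Nfib had 22 of its 6576 listed pairs, Nfic 17 of 2485, Nfix 15 of 3565 and Nfia 8 of 3626, so that as a share of listed pairs Nfic came first and Nfix next. The highest for Nfib (0.432) joined the fetal-high region at chr4:82382954 to a distal region 111 kb away below the gene, and that same region also took part in its second highest pair, at 0.424. The highest for Nfix (0.425) joined the 2 regions described above, chr8:84712016-84713015 and chr8:84773430-84774429, 61.4 kb apart. Of the 3 members with promoter regions in their spans, Nfic alone had pairs that included them at this score, 3 of 17, while at a score of at least 0.1 Nfic had 47 such pairs and Nfix 16. The share over all listed pairs of the genome was not analysed here at either score, so none of these counts is read as high or low. In the authors' deposited gene accessibility scores, also pooled, the share of nuclei above 0 was 32.2% for Nfib, 20.7% for Nfix, 11.7% for Nfia and 5.35% for Nfic, against a median of 6.79% over 11327 genes. Those 2 tables have no column that names a library, so they bear on no comparison of stages.

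The genes most like each member across the 14 classes, among genes with at least 1000 reads, were Col9a3 (r = 0.952), Utp20 (0.950) and Cnfn (0.943) for Nfib. For Nfix they were Mgll (0.956), Epha4 (0.940) and Cmklr1 (0.938), for Nfia Arhgap42 (0.931), Cep170 (0.921) and Col5a2 (0.900), and for Nfic Dhrs7b (0.932), Nicn1 (0.925) and Hdac7 (0.920). The members were not alike among themselves, with r from -0.259 (Nfic and Nfix) to 0.424 (Nfib and Nfix).

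The listed mammary genes, and those from glia, muscle and blood, showed no common direction in the same edgeR test, in which 11.3% of genes rose and 10.9% fell. These lists and that of SOX factors were chosen with earlier results of these data known. Of 12 listed mammary genes 11 were tested, and 1 rose and 3 fell. Csn3, which encodes kappa-casein, rose in fetal nuclei by 1.69 (SE 0.21). The prolactin receptor gene Prlr fell by 1.56 and the genes of the prolactin-activated transcription factors, Stat5a and Stat5b, fell by 0.68 and 0.65 on the log2 scale. The list's median was -0.30. Of 13 genes from glia, muscle and blood, 2 rose (Mmd2 by 0.90 and the glutamate transporter gene Slc1a3 by 0.55), 2 fell (S100b by 1.14 and Aldh1l1 by 0.49), and the median was 0.16. Of 5 genes for SOX factors, Sox11 rose by 2.86, Sox10 by 0.96 and Sox12 by 0.55, with a median of 0.55, while Sox4 and Sox9 did not pass the test (0.31 and 0.01). By difference in motif score Sox9, Sox4 and Sox12 ranked 2, 3 and 5 of the 427 columns, among the family's own, and Sox11 and Sox10 ranked 18 and 27. Against these, the 0.70 of Nfib lay between Sox12 and Sox10, and the median over all 18804 genes was 0.01.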

How the data were processed

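The authors deposited mapped reads with nucleus barcodes, lists of nuclei, promoter and distal regions, a table of motif deviation scores with the read count and class of every nucleus, and pooled co-accessibility and gene accessibility scores. Per the submitters' processing notes, Bowtie2, MACS2 and bedtools were used with build mm10; their roles and versions, and the motif set, are not given in the sources used here. The deposited score columns were used as they are. The deposited count of reads per nucleus equalled the reads of its barcode in all 7846 nuclei.

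Read counts were computed here from those deposited reads, 1 base of overlap being enough, over gene spans with 2 kb flanks (RefSeq GRCm38.p6) and over the deposited regions, summed per library and class. Fetal and adult sums were compared with edgeR 4.0.16 (quasi-likelihood test, TMM, features with a mean of at least 10 reads, Benjamini-Hochberg over all features, threshold 0.05, no replicate block), after a check on simulated data. The SE is the log2 difference divided by the square root of its F statistic. With 2 libraries a group, p-values measure only the spread between these libraries, and PCR copies were not told apart beyond what the authors did. Doublets were not called here.

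Depth was 6028168, 15801908, 13588107 and 19304830 reads in nuclei (fetal replicates 1 and 2, adult replicates 1 and 2). Same-numbered libraries deviated together by r = 0.267, but with 2 pairs the numbers were not taken to pair them. Class levels carry 95% Poisson intervals, and a count of 0 allows 3 reads. A marker counted as raised when its log2 level was at least 0.5 above that of the other classes. All 4 members are named, and for each member the 3 distal regions that rose and the 3 that fell most among called regions without overlap and with a mean of at least 50 reads, plus the most read one, and the 3 most alike genes. Members and lists were chosen with earlier results of these data known. Alternatives covered the count model (DESeq2 1.42.0), scaling, filter, barcodes, overlap, replicate block, left-out libraries and the choice of level.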

Additional observations from a re-analysis of the deposited data

Results flagged for a closer look

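Basal-like and luminal progenitor-like classes differed in opposite directions at the 2 stages for 3 measures of the family, in both libraries of each stage, and these differences between stages were not tested. Such opposite directions were found for 11.2% of 12330 gene spans and 10.3% of the 427 motif columns. For the Nfix gene span, basal-like over progenitor-like was 0.41 on the log2 scale in adult libraries (0.47 and 0.35) and -0.21 in fetal libraries (-0.26 and -0.16), 0.62 apart. For the Nfib gene span it was 0.13 in adult (0.15 and 0.11) and -0.16 in fetal libraries, 0.29 apart, and the fetal libraries had -0.28 and -0.04, the latter close to 0. For the Nfic motif score, basal-like minus progenitor-like was 0.256 in adult libraries (0.276 and 0.236) and -0.487 in fetal libraries (-0.415 and -0.560), 0.743 apart. The adult classes were 1 and 8 against 3 and 7, and the fetal classes 4 against 9. Fetal class 5, the other luminal progenitor-like class, also lay above class 4 in these 3 measures in both libraries. Class 12, unnamed but with 3 of 9 basal markers raised, went the other way, above class 9 in both libraries. It had 368 and 390 against 355 and 350 CPM for Nfix, and 707 and 809 against 615 and 642 CPM for Nfib. The Nfic scores were 1.03 and 1.40 against 0.735 and 1.07. With class 12 in place of class 4, the fetal direction was thus that of the adult libraries.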

How the results depend on the processing

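The higher Nfib locus in fetal nuclei held in all 14 alternatives tried, with log2 differences of 0.60 to 0.78 and a highest adjusted p of 0.00728, and the likeness of that locus to its motif stayed between 0.854 and 0.922 in 11. The Nfia, Nfic and Nfix loci were not called in any of their 14. The count of gene spans called was 6424 with the replicate block, against 4172 without it, and ran from 1812 (without fetal replicate 2) to 4459 when libraries were left out, while promoter and distal regions called fell to 2622 and 24872 in DESeq2, distal ones to 15301 with a mean of at least 50 reads (a larger share, 53.5%, of the 28608 tested), and promoter ones to 2514 without fetal replicate 2. The Nfia locus difference ran from -0.056 (without adult replicate 1) to 0.127 (without adult replicate 2) when libraries were left out, and was -0.04 without fetal replicate 2. That of Nfic was -0.085 without adult replicate 1 and -0.227 without adult replicate 2. Over reads outside promoter regions it was -0.328 (edgeR adjusted p = 0.0815). The likeness of the Nfia locus to its motif turned to 0.169 (Spearman), 0.0832 (distal regions) and 0.272 (without class 6, added after the data were seen), and that of Nfic to 0.276 (promoter regions). Where the sign stayed, Nfia ran from -0.330 (promoter regions) to -0.0492 (without adult replicate 2). Nfic ran from -0.410 (distal regions) to -0.111 (without adult replicate 1). The causes were not tested. The share of distal regions with the palindrome was not analysed here. With 2 libraries a stage, and fetal replicate 1 the shallowest, a difference that missed the threshold is not shown to be absent.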
